A study of Mus musculus with 33 samples.

Results

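This account describes 8 mouse genes of neurotrophin signalling in enteric neural crest cells (ENCCs), the migrating precursors of the enteric nervous system, and in whole embryonic gut. The genes were chosen by name: the ligand genes Bdnf and Ntf3, the receptor genes Ntrk2, Ntrk3 and Ngfr, and the sorting receptor genes Sort1, Sorcs1 and Sorcs2. A probe set was taken where the platform annotation gives exactly 1 gene symbol and that symbol is on the list. This found 28 probe sets for 7 of the 8 genes, of 34945 probe sets for 18193 genes in all: 8 each for Ntrk2 and Ntrk3, 3 each for Ngfr, Sort1 and Sorcs1, 2 for Bdnf and 1 for Sorcs2. No probe set was found for Ntf3, which is not analysed here. The list was drawn up with earlier results of these data known, among them the response of Sorcs2 to GDNF. The members' values are therefore a description, with no p-value for a member; whether limma, fitted to all genes, called a member at an adjusted p under 0.05 is stated only as such.

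ENCCs came from C57BL/6 mice with a LoxP/R26-YFP reporter and Wnt1-Cre-recombinase, so that YFP marks cells in which Wnt1-Cre was active and their progeny. They were sorted by their fluorescence from the gut at embryonic day 14.5, and all wells were coated with fibronectin and received FGF and EGF. How long they were cultured is not stated in the labels. The cells of each of 9 guts filled a pair of wells, of which 1 received GDNF, the ligand of the receptor RET, at 50 ng/ml and the other none. Whole guts, dissected from duodenum to anus, came from wild-type C57BL/6 embryos of the same age; the protocols describe culture for ENCCs only. The comparisons ask which genes respond to GDNF in ENCCs and which differ between ENCCs and whole gut. In the second comparison cell type, sorting, culture and reporter genotype change together and cannot be told apart. The 33 arrays hold 12 of untreated ENCCs, 13 of GDNF-treated ENCCs and 8 of whole gut; 17 belong to the batch numbered 1 in the titles and 16 to batch 2. Both batches read 7 of the 18 ENCC RNAs, and repeat arrays of an RNA were averaged and counted once. Between batches these 7 RNAs correlated over all probe sets with r of 0.117 to 0.325. The lowest belongs to the untreated well of gut 3, which correlated better with another untreated RNA (0.155), as did the treated well of gut 8 with another treated one (0.268 against 0.247). Without the batch 2 array of that untreated well no call of a member changed. The GDNF differences then ran from -0.06 (Bdnf) to 2.08 (Sorcs2), and untreated ENCCs minus whole gut was 2.04 for Bdnf, 1.93 for Ngfr and -0.95 for Ntrk3.

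All values are scores: each array's probe sets were ranked and given the normal quantile of their rank, so an array runs from -4.084 to 4.084 around a median of 0. The values show that probe sets had been centred on ENCC arrays of their batch first. Whether they were also divided by their spread was not tested. A score therefore places a gene relative to its own level among ENCCs, gives no fold change, and cannot be compared between genes. In whole gut it ranks the gene by its distance from ENCCs among all genes of that array. The score of a gene is the mean of its probe sets. The number of arrays limits the precision. The labels do not say whether whole guts shared a litter or were pooled, so the SD among them may be technical.

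Neurotrophins are secreted as pro-forms that are cut to mature dimers. Mature BDNF binds the receptor tyrosine kinase TrkB, encoded by Ntrk2, and NT-3 binds TrkC, encoded by Ntrk3, while the p75 receptor, encoded by Ngfr, binds all neurotrophins and pairs with sortilin or SorCS2 to bind the pro-forms. Sortilin (Sort1) and the SorCS proteins share a VPS10 domain and move cargo, Trk receptors included, between the Golgi, endosomes and the cell surface. In the gut, p75 is a classic surface marker of ENCCs, and TrkC and NT-3 are known for their part in the development of enteric neurons. Alternative transcripts of Ntrk2 and Ntrk3 encode receptors with and without the kinase domain, and which transcripts a probe set reads was not resolved here.

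The promoter table from RefSeq (GRCm38.p6) held windows for 5 of the 8 genes: 7 for Bdnf, 2 for Ntf3 and 1 each for Ngfr, Ntrk2 and Sorcs1. Of each window the 250 bases before the start were searched on both strands for the CRE (TGACGTCA), its half-site (TGACG, also held in the full site), a GC box (GGGCGG), an E-box (CAGCTG), a SOX motif (ACAAAG) and a homeodomain core (TAATTA). Those of Ngfr and Bdnf are shown because these genes lay on the same side of 0 in every ENCC RNA, as given later, and those of Ntrk2 and Sorcs1 because both were higher with GDNF. Capitals mark the motifs, and each sequence runs 5′ to 3′ on the strand of its gene. Of the 7 Bdnf windows the one printed was chosen because it is the only one with a CRE half-site. A start here is that of a RefSeq transcript and need not be the outer end of the gene. By the RefSeq gene coordinates the printed windows of Bdnf and Sorcs1 lie inside the gene, and that of Ntrk2 lies partly inside it.
Ngfr, chr11:95587699-95587948, minus strand: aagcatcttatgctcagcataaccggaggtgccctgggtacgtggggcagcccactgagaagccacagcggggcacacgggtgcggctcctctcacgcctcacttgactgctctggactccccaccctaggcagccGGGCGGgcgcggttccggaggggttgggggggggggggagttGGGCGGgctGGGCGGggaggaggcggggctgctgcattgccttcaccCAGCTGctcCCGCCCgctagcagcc
Bdnf, chr2:109692186-109692435, plus strand: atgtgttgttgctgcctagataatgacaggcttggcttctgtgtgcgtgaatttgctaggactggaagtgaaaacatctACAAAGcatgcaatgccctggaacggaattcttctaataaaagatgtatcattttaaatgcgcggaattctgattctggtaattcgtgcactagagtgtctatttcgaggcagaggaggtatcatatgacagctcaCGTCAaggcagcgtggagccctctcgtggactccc
Ntrk2, chr13:58806319-58806568, plus strand: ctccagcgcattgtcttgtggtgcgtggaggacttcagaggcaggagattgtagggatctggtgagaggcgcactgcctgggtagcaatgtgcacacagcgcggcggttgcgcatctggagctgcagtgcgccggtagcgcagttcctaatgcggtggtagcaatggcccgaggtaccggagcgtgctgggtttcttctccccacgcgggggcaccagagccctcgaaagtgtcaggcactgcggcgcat
Sorcs1, chr19:50678647-50678896, minus strand: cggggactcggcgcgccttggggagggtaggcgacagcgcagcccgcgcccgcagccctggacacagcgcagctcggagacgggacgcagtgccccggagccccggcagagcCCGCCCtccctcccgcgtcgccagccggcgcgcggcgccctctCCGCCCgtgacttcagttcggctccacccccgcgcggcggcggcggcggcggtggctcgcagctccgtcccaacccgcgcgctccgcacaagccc
The Ngfr window held 4 GC boxes and 1 E-box, with a GC content of 70.4%, and that of Sorcs1 held 2 GC boxes at 79.6%. The printed Bdnf window held 1 CRE half-site and 1 SOX motif at 45.6%, and that of Ntrk2 held none of the motifs at 62.8%. Among all 32851 windows of this length, 32.7% held a GC box, 17.8% a CRE half-site, 16.5% the SOX motif and 13.0% the E-box. A match describes these letters only.

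With GDNF, the sortilin family genes Sorcs2 and Sorcs1 and the Trk receptor genes Ntrk2 and Ntrk3 were higher, while Bdnf, Ngfr and Sort1 showed no difference past the test. Limma called 4 of the 7 genes higher and 0 lower, where 18.3% of all genes were called higher and 13.2% lower, 31.5% in all. The median difference was 0.73 over the 7 genes and 0.01 over all genes. Of the 28 probe sets taken singly, 10 were called higher and 0 lower, against 16.9% and 13.2% of all probe sets, or 30.1% in either direction. The listing used this contrast, so nothing is read from these counts.

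**Figure D1:**
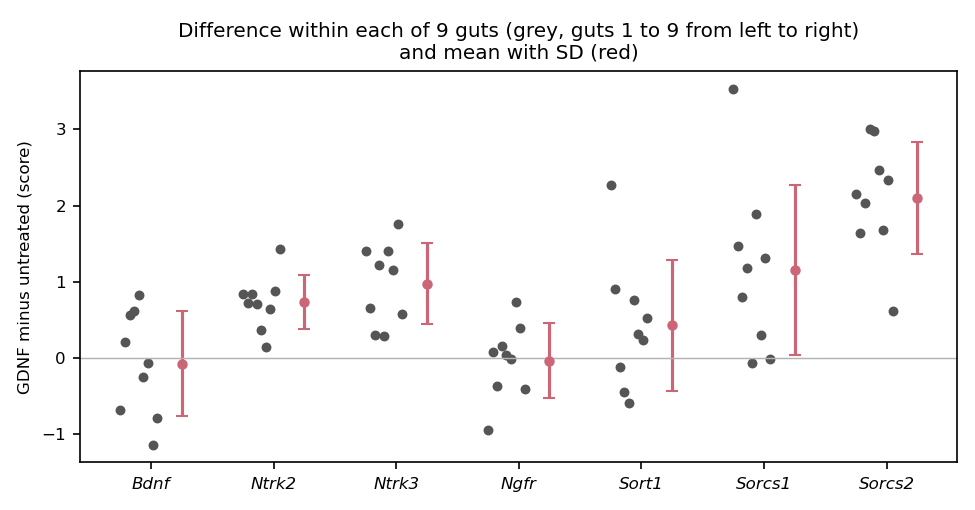
Difference in gene score between the treated and untreated well of the same gut, for 7 genes (x axis) in score units (y axis); grey points are guts 1 to 9 from left to right and red points with bars are the mean and SD. Sorcs2, Ntrk2 and Ntrk3 lie above 0 in all 9 guts, and Bdnf and Ngfr lie on both sides of it.

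Sorcs2, the sortilin relative that forms a pro-neurotrophin receptor with p75, was higher with GDNF in every gut. Its score over the 9 untreated RNAs had a lowest value of -3.42, a median of -0.96 and a highest value of 0.55, and over the 9 treated RNAs these were -0.42, 0.89 and 2.71. The groups overlapped between guts, since gut 4 gave the lowest value and gut 1 the highest in both. Within guts the treated well was higher in 9 of 9, which held for 11.7% of all genes, and the mean difference was 2.10 ± 0.74 (SD, n = 9 guts). It ran from 0.62 in gut 9 to 3.01 in gut 4. Gut 9 was read in both batches, and its difference was -0.37 in batch 1 and 1.60 in batch 2. In batch 2 alone the mean was 1.84 ± 0.29 (n = 4), and in batch 1 alone 2.07 ± 1.10 (n = 8).

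Sorcs1, a relative that takes part in the sorting of Trk receptors, was higher by 1.15 ± 1.12 (n = 9). Its untreated RNAs had a lowest score of -2.14, a median of -0.40 and a highest of 0.57, and its treated RNAs -0.42, 0.50 and 1.39. The untreated well of gut 1 was the lowest, and this gut gave a difference of 3.53, against 1.89 for the next. Gut 5 was at -0.07 and gut 9 at -0.02, so that 7 of 9 guts were higher. Of its 3 probe sets, 1425864_a_at and 1436662_at were called, at 1.47 and 1.51, and 1421509_at was not, at 0.48 ± 1.66. Limma no longer called the gene with the difference of the hybridisation control probe sets as a covariate, at 0.88. Those controls differed between the wells of a gut by -2.18 to 0.65.

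Sort1, which encodes sortilin itself, was at 0.43 ± 0.86 (n = 9) and was not called. Its difference was 2.27 in gut 1 and -0.60 to 0.91 in the other guts, and without gut 1 it was 0.20. Its probe sets lay at 0.84 (1423362_at), 0.41 (1450955_s_at) and 0.03 (1423363_at). For 7 RNAs read in both batches the scores of these probe sets correlated between batches with r of only -0.25 to 0.11, so the order of the ENCC RNAs in Sort1 did not repeat.

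Ntrk2, encoding the BDNF receptor TrkB, was higher by 0.73 ± 0.36 and in 9 of 9 guts. The untreated RNAs had a lowest score of -0.72, a median of -0.39 and a highest of 0.05, and the treated RNAs -0.12, 0.49 and 0.71. The overlap of the groups came from the treated well of gut 5, the lowest treated value, and the untreated well of gut 6, the highest untreated one. The gene mean joined probe sets that did not move alike. The probe set 1435305_at was at 2.08 ± 0.64, 1458622_at at 1.71 ± 0.32 and 1437560_at at 1.26 ± 0.83, each higher in 9 of 9 guts and called. The other 5 lay between -0.21 and 0.72 with SDs of 0.90 to 1.51, and none was called. The 3 called probe sets correlated between batches with r of 0.68 to 0.89 over the 7 RNAs, and the other 5 with -0.58 to 0.25. These RNAs include treated and untreated wells, so a probe set that differs with GDNF also has more to repeat. With the hybridisation controls as a covariate the gene mean was 0.55 and not called.

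Ntrk3, encoding the NT-3 receptor TrkC, was higher by 0.97 ± 0.53 and in 9 of 9 guts, from 0.28 in gut 5 to 1.76 in gut 8. Its untreated RNAs had a lowest score of -1.004, a median of -0.38 and a highest of -0.15, and its treated RNAs -0.12, 0.40 and 1.14. With repeat arrays averaged, treated and untreated RNAs did not overlap, by a narrow margin, which was the case in this direction for 4.69% of all genes. Within each batch the arrays did overlap. In batch 1 the untreated well of gut 9 (-0.05) lay above the treated wells of guts 3 (-0.09) and 5 (-0.12). In batch 2 the untreated well of gut 3 (0.20) lay above the treated well of gut 2 (0.06). Of its 8 probe sets 4 were called: 1455917_at at 2.02 ± 0.94, 1422329_a_at at 1.60 ± 0.83, 1447723_at at 1.57 ± 1.52 and 1433825_at at 1.52 ± 0.94. The probe set 1426003_at went the other way, at -0.51 ± 0.72 and lower in 8 of 9 guts, without a call, although its scores repeated between batches as well (r = 0.66) as those of 1433825_at (0.65). The remaining 3 were at 0.20 to 0.76.

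**Figure D2:**
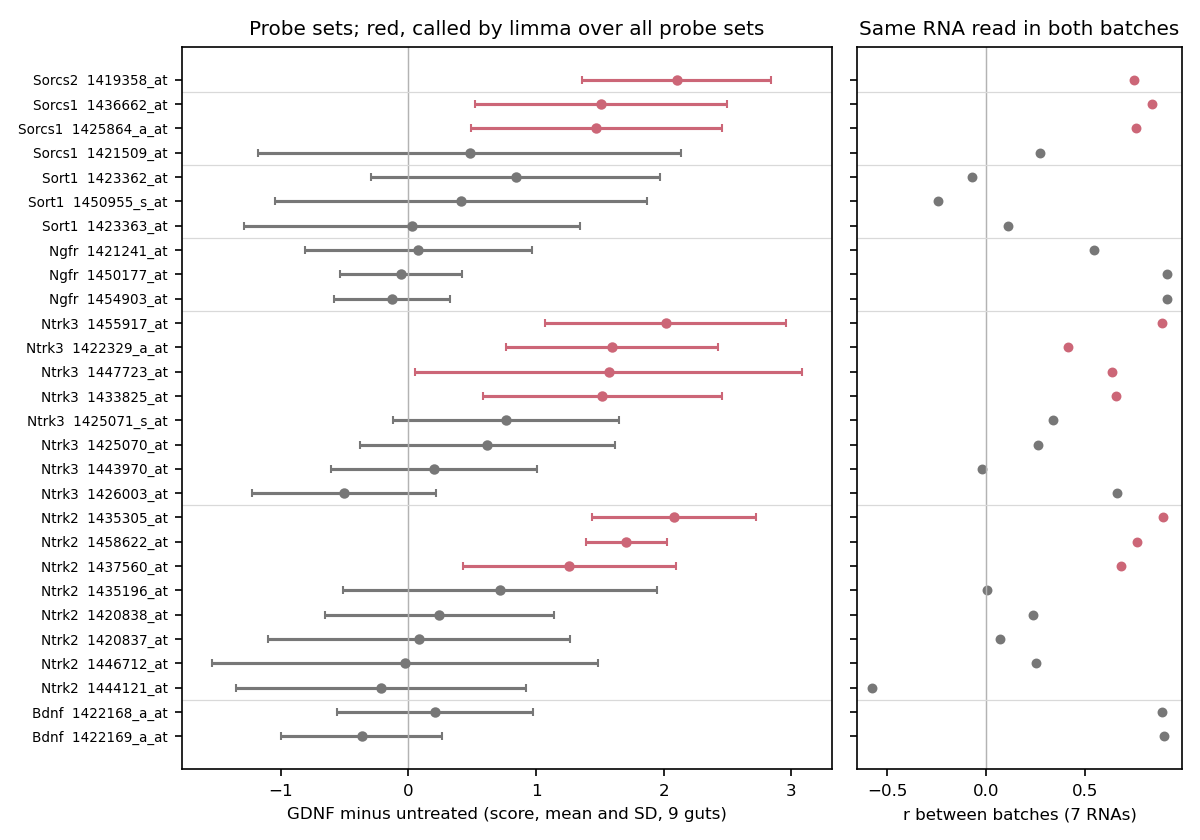
Left, the GDNF minus untreated difference in score of each of the 28 probe sets (mean and SD over 9 guts), grouped by gene, with the 10 called probe sets in red; right, the correlation of the same 7 RNAs between batches. The called Ntrk2 probe sets lie at 1.26 to 2.08, and those of Sort1 have correlations near or below 0.

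Ngfr, encoding p75, was at -0.04 ± 0.49 (n = 9), higher with GDNF in 5 guts and lower in 4. Bdnf, encoding the TrkB ligand, was at -0.08 ± 0.69, higher in 4 and lower in 5. These means near 0 do not show that the genes were alike in the wells of a gut. The Bdnf difference was 0.21 to 0.82 in guts 2, 3, 4 and 5 and -1.14 to -0.06 in guts 1, 6, 7, 8 and 9. Its scores were spread more widely among untreated RNAs, with an SD of 1.16 and values from -1.40 to 1.27, than among treated ones, with an SD of 0.53 and values from -0.73 to 0.57; this difference in spread was not tested.

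Both genes differed between guts, and along the same guts. The untreated well of Bdnf was at 1.17 in gut 1, -0.63 in gut 2, -1.29 in gut 3, -1.24 in gut 4 and -1.40 in gut 5, and at 0.58, 0.63, 1.20 and 1.27 in guts 6, 7, 8 and 9. Its treated well was at 0.49, -0.34, -0.73, -0.62 and -0.58 in guts 1 to 5 and at 0.33, 0.57, 0.06 and 0.48 in guts 6 to 9. Guts 2, 3, 4 and 5 were thus low in both wells and the others high. Ngfr followed with 1.77, -0.73, -0.81, -0.34 and -0.79 in the untreated wells of guts 1 to 5, and 0.29, 0.08, 0.53 and 1.04 in guts 6 to 9. Its treated wells were at 0.82, -0.69, -1.17, -0.19 and -0.75, and then 0.28, 0.81, 0.92 and 0.64.

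For each of Bdnf and Ngfr both wells of a gut lay on the same side of 0 in 9 of 9 guts, which held for 1.03% of all genes. The corresponding number was 6 for Sort1, 3 for Sorcs1, 2 for Ntrk2 and Sorcs2 and 1 for Ntrk3. Because 0 was set on treated and untreated ENCC arrays together, a gene that differs with GDNF tends to have its wells on opposite sides. This lowers the number for such genes and the share over all genes, so the share is no measure of rarity. The genes Bdnf and Ngfr lay on the same side of 0 in 18 of 18 RNAs, whereas Sort1 was on the side of Bdnf in 3 of 18. How often other pairs of genes do so was not counted. Sort1 was not alone in this: Bdnf correlated with Sort1 at r = -0.62 and with Sorcs1 at -0.53. For Ngfr the values were -0.45 and -0.52. In batch 2 alone the opposition of Sort1 did not hold for 3 of the wells of guts 3 and 8, where it was at -0.73 and -0.57 in the untreated and treated wells of gut 3 and at 0.79 in the untreated well of gut 8, each on the side of Bdnf. The pattern over guts was noticed in these values and has no test. The arrays of guts 3, 8 and 9 in the other batch repeated it for Ngfr, and for Bdnf in all but the treated well of gut 8, at 0.18 in batch 1 and -0.07 in batch 2. The probe sets of Bdnf correlated between batches with r = 0.89 and 0.90, and those of Ngfr with 0.54 to 0.91. In guts 2 to 5 the mean score of the progenitor and glia markers was -0.47 to 0.26 in untreated and -0.53 to 0.98 in treated wells, and in the other guts -0.36 to 0.56 and -0.74 to 1.00. Ribosomal protein genes in treated wells were at -0.35 to 0.27 in guts 2 to 5. They were at -1.03 to -0.72 in guts 6 to 9 and at 0.22 in gut 1. In untreated wells they were at 0.60 to 1.23, 0.53 to 0.90 and 0.50 in the same order, so the ranges overlapped. Neuron markers in untreated wells were at -1.26 to -0.83 in guts 2 to 5. They were at -0.77 to -0.20 in guts 6 to 9 and at -1.54 in gut 1. Only these lists are given by gut. The part of these lists in the pattern was not tested. The labels name no litter or sorting day for a gut, and what these guts share was not tested.

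**Figure D3:**
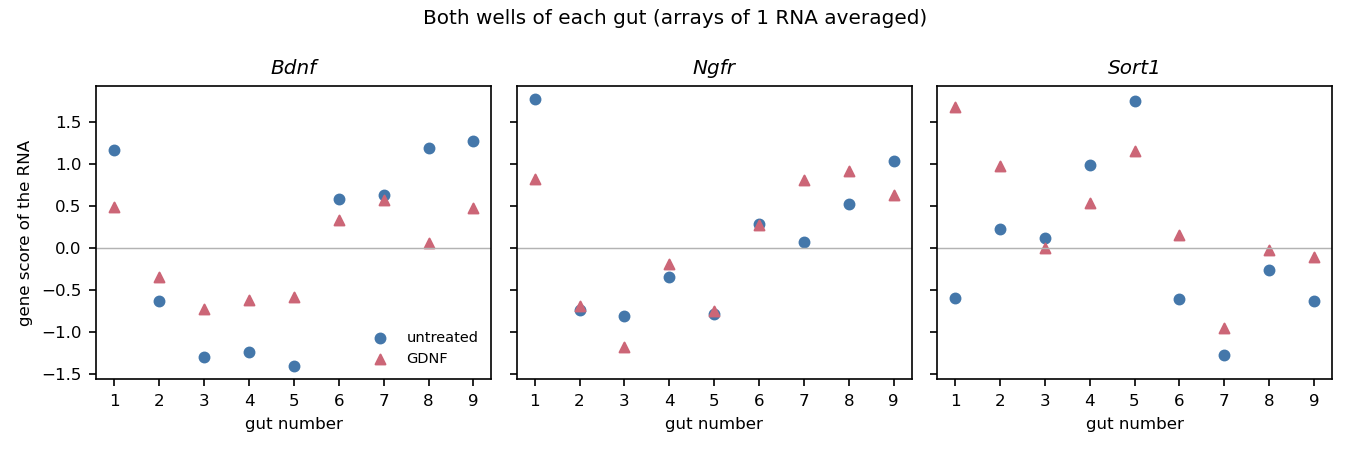
Scores of Bdnf, Ngfr and Sort1 (y axis) in the untreated well (blue circles) and GDNF-treated well (red triangles) of guts 1 to 9 (x axis), with arrays of 1 RNA averaged. Bdnf and Ngfr lie below 0 in both wells of guts 2, 3, 4 and 5 and above 0 in both wells of the other guts.

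Other lists of genes moved in the same GDNF contrast. Of 9 measured enteric neuron markers 7 were called higher and 0 lower, and their mean score was higher by 1.32 ± 0.29 (n = 9 guts) and in 9 of 9. Of 7 ribosomal protein genes 6 were called lower, with a mean of -1.17 ± 0.47, below 0 in 9 of 9 guts. Of 9 gut mesenchyme markers 6 were called lower, at -0.92 ± 0.55. Of the 7 progenitor and glia markers 2 were called higher, at 0.14 ± 0.75, and of 9 gut epithelium markers 1. Of 5 mesothelium markers 2 were called higher, and their mean was higher in 9 of 9 guts, by 0.63 ± 0.39. The gene Krt19 is on both the epithelium and the mesothelium list. In bulk RNA more cells of a type and more RNA per cell cannot be told apart, and the part of these lists in the members' differences was not tested.

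Against whole gut, Bdnf, Ngfr, Sort1, Sorcs1 and Sorcs2 were higher in ENCCs with or without GDNF, Ntrk2 was higher with GDNF, and Ntrk3 was lower in untreated ENCCs. The comparison used the 16 arrays of batch 2, which hold all whole guts, and 4 guts for each ENCC group. Both ENCC groups are set against the same 8 whole guts, so their results are not independent. The fit took a shared variance for both groups, although the members' gene means varied more among ENCC wells than among whole guts. For Bdnf in untreated wells the SD was 1.265 against 0.046, and for Ntf5, given later, 1.156 against 0.219. With fewer ENCC arrays than whole guts, the adjusted p-values and calls against whole gut can be too favourable. Fits with separate variances were not run. For untreated ENCCs limma called 5 of the 7 genes higher and 1 lower, where 19.8% of all genes were called higher and 22.8% lower, 42.6% in all. For treated ENCCs it called 6 higher and 0 lower, against 25.1% and 26.0% of all genes, 51.0% together. Of the 28 probe sets, 11 were called higher and 2 lower without GDNF, against 18.6% and 19.2% of all probe sets (37.8% in either direction). With GDNF 17 were called higher and 1 lower, against 23.7% and 23.5% (47.2% in either direction). Untreated ENCCs and whole guts did not overlap, with ENCCs higher, for 5 members (12.4% of all genes), and treated ENCCs for 6 (17.8%). In either direction the groups did not overlap for 27.6% and 34.9% of all genes. The members were listed with these results known, so nothing is read from the counts.

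**Figure D4:**
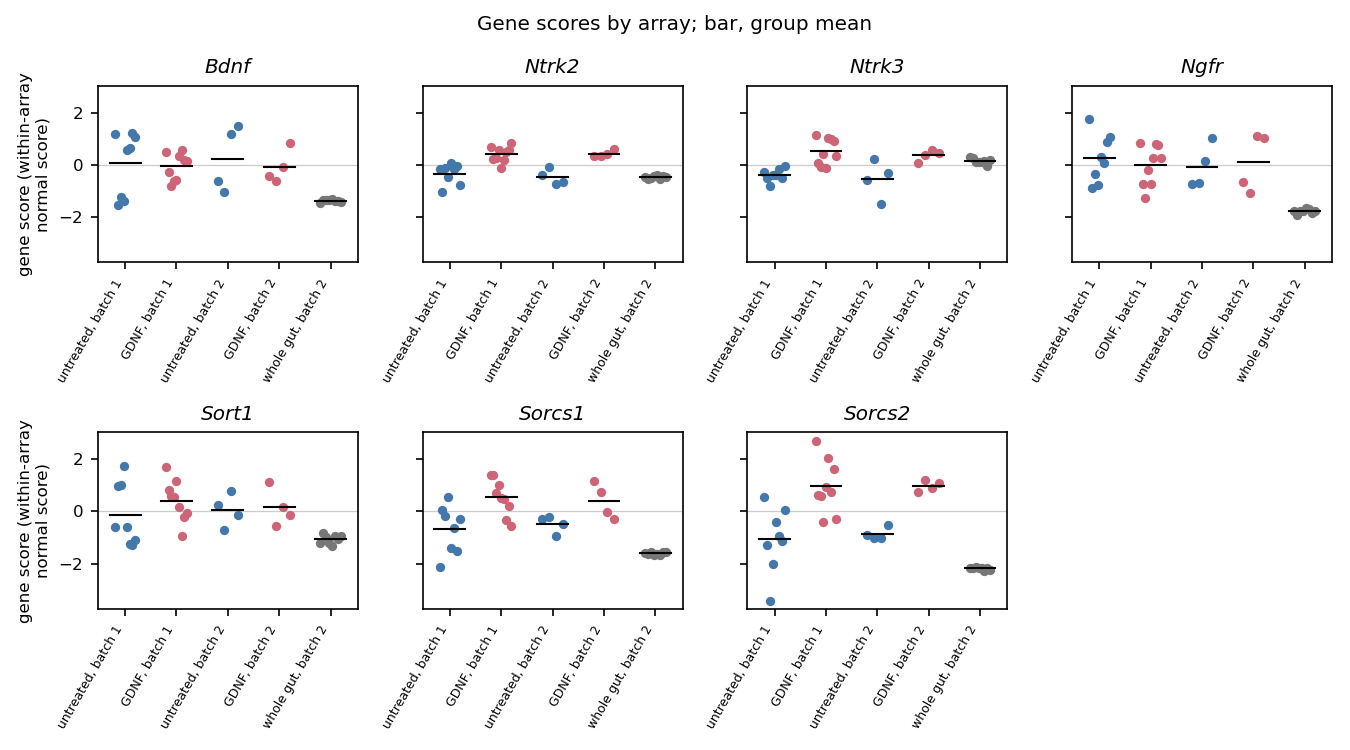
Gene scores (y axis) of the 7 genes on every array, with untreated ENCCs in blue, GDNF-treated ENCCs in red and whole guts in grey, split by batch (x axis); black bars are means. In batch 2 Sorcs2 is ordered whole gut, untreated, treated with no overlap, while Ntrk3 in whole gut lies between -0.04 and 0.28 and overlaps the untreated ENCCs, at -1.52 to 0.20.

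Sorcs2 showed 3 separate levels in batch 2. The 8 whole guts were at -2.28 to -2.14, the 4 untreated wells at -1.02 to -0.51 and the 4 treated wells at 0.74 to 1.21. The difference from whole gut was 1.33 without GDNF and 3.17 with it. Sorcs1 had the same order of means, at -1.60 ± 0.05 in whole gut (SD, n = 8), -0.48 ± 0.33 in untreated wells (n = 4) and 0.40 ± 0.67 in treated wells (n = 4). The untreated range of -0.94 to -0.20 overlapped the treated range of -0.29 to 1.17, and both lay above every whole gut. All 3 of its probe sets were called higher in each ENCC group.

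Ngfr, the gene of the ENCC surface marker p75, was higher than whole gut in both ENCC groups. Whole guts were at -1.93 to -1.67, and untreated wells at -0.73, -0.71, 0.16 and 1.02 in guts 2, 3, 8 and 9. The treated wells of these guts were at -0.65, -1.07, 1.11 and 1.02. Every ENCC well was above every whole gut, by 1.71 in the mean without GDNF and 1.88 with it, and all 3 probe sets were called in both. The treated and untreated means did not differ beyond their spread. For Bdnf whole guts were at -1.45 to -1.31, untreated wells at -0.63, -1.05, 1.16 and 1.47 and treated wells at -0.41, -0.63, -0.07 and 0.82. The means lay above whole gut by 1.61 and 1.30, with guts 2 and 3 nearest to the tissue. Both Bdnf probe sets were called in both comparisons.

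Sort1 was higher than whole gut (-1.06 ± 0.17) in untreated wells, by 1.10, and in treated wells, by 1.21. Without GDNF, 1450955_s_at was higher by 1.65 and 1423362_at by 0.43, of which the second was not called. With GDNF, 1423363_at was not called, at 0.26. Since that probe set repeated best between batches, taking it for the gene removed the call of the treated wells.

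In untreated ENCCs the gene means of the Trk receptor genes were not higher than in whole gut, unlike those of the other members. Each is a mean of 8 probe sets, which did not move alike. The score of Ntrk2 in untreated ENCCs (-0.47 ± 0.30) was that of whole gut (-0.47 ± 0.06), with a difference of 0.00 and no call for any of its 8 probe sets. In treated ENCCs it was 0.42 ± 0.13, higher by 0.89, with each well above every whole gut. The 3 probe sets that were higher with GDNF were higher than whole gut by 1.57 to 1.69, and 1420837_at was also called, at 1.01. Ntrk3 was at 0.14 ± 0.10 in whole gut, -0.55 ± 0.72 in untreated wells and 0.37 ± 0.22 in treated wells. It was called lower in untreated ENCCs, by 0.69, and not called in treated ones, at 0.23. The call in untreated ENCCs ended without the untreated well of gut 2 (-0.68) or of gut 8 (-0.37), without whole gut 1, 2, 3, 5, 6 or 8 (-0.70 to -0.67), and with the median of the probe sets (-0.67). With its most reproducible probe set it turned to 0.07.

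The probe sets of Ntrk3 gave opposite orders of ENCCs and gut. On 1433825_at whole guts were at 1.56 ± 0.28, untreated wells at -1.06 ± 1.31 and treated wells at 0.38 ± 1.15, so that the tissue was higher by 2.62 and 1.19. On 1455917_at whole guts were at -1.04 ± 0.12, untreated wells at -0.97 ± 0.59 and treated wells at 0.96 ± 0.46, so that treated ENCCs were higher than tissue by 2.00 and untreated ones differed by 0.07. Both probe sets were higher with GDNF. The transcripts they read were not compared.

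Markers of cell types were read from the same arrays. The 9 neuron markers were all called higher in both ENCC groups; their mean score was -1.15 to -0.17 in untreated wells, 0.48 to 0.87 in treated wells and -2.01 to -1.95 in whole gut. Of the 7 progenitor and glia markers 5 were called higher without GDNF and 6 with it. All 9 epithelium, 6 endothelium and 5 mesothelium markers were called lower in both ENCC groups, with mean scores in whole gut of 2.54 to 2.61, 1.97 to 2.10 and 1.64 to 1.91. Krt19 is counted in both the epithelium and the mesothelium list. Of 7 smooth muscle markers 6 were called lower in each ENCC group. Of 9 gut mesenchyme markers 1 was called higher and 3 lower without GDNF, and 7 lower with it. Of 5 macrophage and blood markers 1 was called higher and 3 lower without GDNF, and 2 lower with it. The cell type label of the whole gut samples names ENCCs from gut, while their source label names the gut, and these markers lie with the source label. Ribosomal protein genes were called in 0 of 7 without GDNF and lower in 7 of 7 with it. The part of cell mixture in the members' levels was not tested, and sorting, culture and genotype differ along with it.

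Among the other genes of neurotrophin signalling the remaining VPS10 receptors also rose with GDNF. Sorl1, encoding the sorting receptor SORLA, rose by 1.98 ± 0.37 (n = 9, limma adjusted p = 6.45e-05) and Sorcs3 by 1.25 ± 0.46 (adjusted p = 5.49e-04), both in 9 of 9 guts. Sorl1 was lower than whole gut without GDNF, by 1.12 (adjusted p = 1.05e-04), and higher with it, by 0.95 (adjusted p = 3.26e-04). Sorcs3 did not pass the test without GDNF, at 0.14 (adjusted p = 0.683), and was higher by 1.58 with it (adjusted p = 1.80e-04). Ntf5, which encodes the TrkB ligand neurotrophin-4, was at -0.42 ± 1.16 with GDNF (adjusted p = 0.390), and it was lower than whole gut in untreated ENCCs, by 1.71 (adjusted p = 0.00165), and in treated ones, by 1.37 (adjusted p = 4.44e-05).

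Of 16 measured adaptors and effectors of Trk receptors, 3 rose with GDNF and 2 fell, with a median difference of 0.27. These shares are near those of all genes, of which 18.3% were called higher and 13.2% lower. Kidins220, a Trk-bound scaffold, rose by 1.33 ± 0.45 (adjusted p = 3.61e-04) and Grb2, the adaptor that links receptors to RAS activation, by 1.15 ± 0.77 (adjusted p = 0.00406). Ptpn11, which encodes the phosphatase SHP2, fell by 1.10 ± 0.53 (adjusted p = 0.00184), and the docking protein gene Gab1 fell by 0.90 ± 0.53 (adjusted p = 0.00652). With its most reproducible probe set Ptpn11 was at -0.95 and not called. Against whole gut 6 of 16 were higher and 1 lower without GDNF, where 19.8% of all genes were called higher and 22.8% lower. Among the higher ones were the insulin receptor substrate gene Irs1, at 2.15 (adjusted p = 7.14e-05), and Gab1, at 1.65 (adjusted p = 4.02e-04); Sh2b2, at -0.53 (adjusted p = 0.0268), was the lower one. With GDNF 6 were higher and 0 lower, against 25.1% and 26.0% of all genes, among them Kidins220, at 1.99 (adjusted p = 1.87e-07), and Frs3, an adaptor, at 1.95 (adjusted p = 0.00193).

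Of 11 measured partners and relatives of p75, 2 rose with GDNF and 2 fell, near the 18.3% and 13.2% of all genes. Bex1 and Bex3, which encode small proteins that bind p75, rose by 1.80 ± 0.29 (adjusted p = 6.45e-05) and 1.47 ± 0.36 (adjusted p = 1.34e-04). Nradd, a p75-like death domain protein gene, fell by 1.31 ± 0.41 (adjusted p = 3.36e-04), and Traf6, an adaptor of p75, fell by 0.66 ± 0.40 (adjusted p = 0.0227). Traf6 lost its call with its most reproducible probe set (-0.335) and with the median of its probe sets (-0.57). Adjusting for the difference in hybridisation controls (-0.62), dropping the pairing (-0.65) or using batch 2 alone (-0.51) also ended it. So did leaving out gut 5 (-0.62) or gut 7 (-0.63). The Traf6 call held with percent ranks, robust moderation, batch 1 alone and each other gut left out. Maged1, encoding the p75 partner NRAGE, was higher than whole gut in untreated ENCCs, by 1.55 (adjusted p = 1.51e-04), and in treated ones, by 2.63 (adjusted p = 4.94e-05). Nradd was higher than whole gut by 2.10 without GDNF (adjusted p = 1.23e-05), while Bex1 was lower, at -1.67 (adjusted p = 2.56e-06), as was Zfp369, at -1.07 (adjusted p = 0.00521). In treated ENCCs 6 of the 11 were higher and 1 lower, against 25.1% and 26.0% of all genes, with the kinase gene Irak1 at 1.26 (adjusted p = 9.28e-07) and Tnfrsf19 at -0.88 (adjusted p = 0.00422).

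Of 18 measured genes of neurotrophin sorting, processing and shedding, 4 rose with GDNF and 3 fell, where 18.3% of all genes were called higher and 13.2% lower. Cadps2, which promotes the release of dense-core vesicles with their neurotrophins, rose by 1.73 ± 0.33 (adjusted p = 6.52e-05), and Vps35, a retromer subunit, rose by 1.20 ± 0.78 (adjusted p = 0.00331). The convertase genes Furin and Pcsk6, whose products cut pro-proteins, fell by 1.70 ± 1.05 (adjusted p = 0.00117) and 1.37 ± 1.27 (adjusted p = 0.0108). Both were lower in 8 of 9 guts. Against whole gut Pcsk6 was higher in untreated ENCCs, by 1.76 (adjusted p = 4.36e-05), as was Cadps, at 3.16 (adjusted p = 8.66e-07), while Pcsk5 and Gga2, a Golgi adaptor gene, lay at -1.50 (adjusted p = 5.57e-05) and -1.38 (adjusted p = 9.26e-04). In treated ENCCs Cadps and Cadps2 were both higher by 2.28 (adjusted p = 5.09e-04 and 2.68e-07), and Pcsk5 and Plg were at -1.95 (adjusted p = 1.64e-07) and -0.91 (adjusted p = 0.0259). Neuron markers were higher and ribosomal protein genes lower in the same GDNF contrast, at 1.32 and -1.17, and their part in these differences was not tested.

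**Figure D5:**
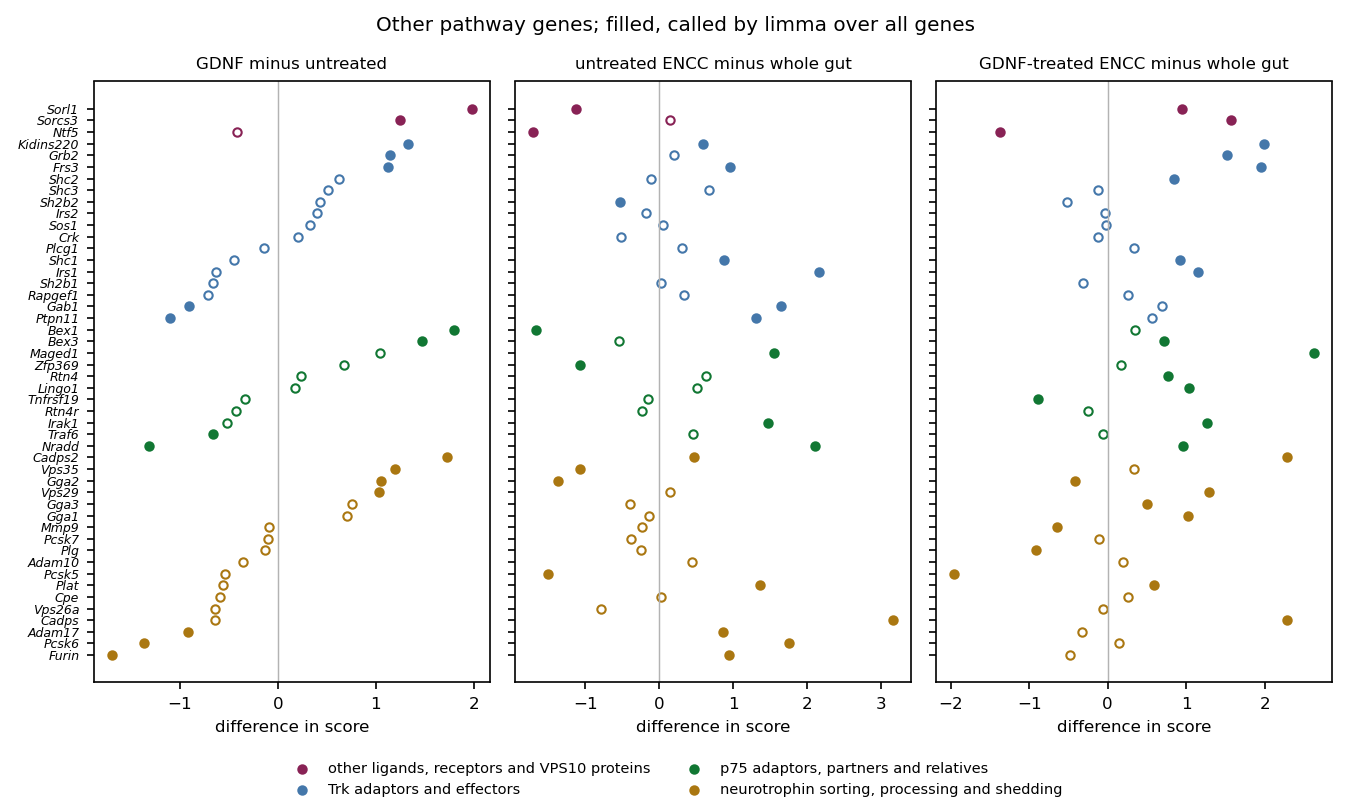
Difference in gene score (x axis) of the other neurotrophin pathway genes (y axis), coloured by list, for GDNF against untreated, untreated ENCCs against whole gut and treated ENCCs against whole gut; filled points were called by limma over all genes. Sorl1 lies at 1.98 with GDNF and on opposite sides of whole gut without and with it, at -1.12 and 0.95.

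The genes whose scores were most like those of each member over the 18 ENCC RNAs were found by Pearson's r, as a description; the wells of a gut share that gut, and GDNF differences enter the likeness. For Sorcs2 they were Flrt1 (r = 0.934), Rasa2 (0.902) and Cadm3 (0.890), and for Sorcs1 Gdpd1 (r = 0.903), Aldh1a3 (0.899) and Ctnnbip1 (0.899). For Ntrk3 they were Akap11 (r = 0.924), Grp (0.905) and Capn5 (0.902), and for Ntrk2 Atp1b3 (r = 0.898), Gm5802 (0.895) and Sstr5 (0.893). For Bdnf they were Mapk9 (r = 0.907), Amacr (0.887) and Pisd (0.887), and for Ngfr Plpp3 (r = 0.895), Plekhm3 (0.887) and Pdp1 (0.872). For Sort1 they were Spdl1 (r = 0.916), Klf15 (0.916) and Glyr1 (0.910). As the order of the RNAs in Sort1 did not repeat between batches, its likeness to these genes may not repeat either. How high the highest r runs for genes in general was not counted.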

How the data were processed

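Biotin-labelled RNA was hybridised to Affymetrix arrays, 1 RNA per array. RMA, without a version, is named in the submitters' processing notes. The deposited values are scores with no unit: sorted, they match normal quantiles of rank / (n + 1) within 5e-06 on all arrays. Averaged over the 7 RNAs that both batches read, probe sets had an SD of 0.0585 (batch 1) and 0.117 (batch 2), against 0.378 for independent arrays, so they had been centred on those arrays; no label records this step. Brightness is not kept, and dim probe sets could not be filtered. Of 45101 probe sets, 34958 had 1 symbol, 932 several and 9211 none; the 64 controls, of which 13 had a symbol, were dropped. Probe sets of a gene were averaged.

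For GDNF, treated minus untreated was taken within each gut and batch, and differences of guts read in both batches were averaged; the pair of gut 2 was complete in batch 2 only. The treatment protocol gives the pairing and the titles the gut number. Deviations of paired wells from their group means correlated over genes with r of 0.063 to 0.296. Limma 3.58.1 (lmFit and eBayes, R 4.3.3) was fitted to the 9 differences, and to 4 ENCC against 8 whole gut arrays of batch 2, over all 18193 genes, with p-values adjusted by Benjamini-Hochberg at 0.05. It was tested on simulated data. The members, lists and tests were chosen with earlier results of these data known. Named were the members, the other ligands, receptors and VPS10 proteins, the 2 called genes with the largest positive and the 2 with the largest negative difference of each other pathway list, and for likeness the 3 genes with the highest r. The alternatives were the median or the most reproducible probe set, each probe set singly, percent ranks, robust moderation, each batch alone, no pairing, hybridisation controls as a covariate, and leaving out single guts or the array of the untreated well of gut 3 in batch 2, the RNA that repeated least between batches.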

Additional observations from a re-analysis of the deposited data

How the results depend on the processing

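For GDNF against untreated limma called 5725 genes. In batch 2 alone, with 4 guts, it called 0, with 3516 at an unadjusted p under 0.05; the members then lay at 1.84 (Sorcs2), 0.92 (Ntrk3), 0.89 (Ntrk2) and 0.88 (Sorcs1), without a call. Without the pairing (no replicate block) it called 4859 genes, and no call of a member changed, while Gab1 (-0.92) and Traf6 (-0.65) lost theirs. Leaving out single guts gave 5029 to 5909 calls. For untreated ENCCs against whole gut, with 7752 calls, leaving out single samples gave 7067 to 9497, and for treated ENCCs, with 9281 calls, 8634 to 9835. Every other alternative gave a count within 1.5 times of these. Over the members, 338 of 357 single values under an alternative kept their direction or moved by less than the spread, and kept their side of the threshold; 16 lost a call, 2 gained one and 1 changed sign, which was Ntrk3 in untreated ENCCs against whole gut at 0.072 with its most reproducible probe set. The most reproducible probe set was picked over treated and untreated RNAs together, which favours a probe set that differs with GDNF. This choice put Ntrk2 and Ntrk3 at 2.08 and 2.02 with GDNF, against 0.73 and 0.97 for the mean of all. It also put Ntrk3 in treated ENCCs above whole gut by 2.00, with a call. Without the treated well of gut 2 Ntrk3 was called there as well, at 0.33. The cause was not tested. Values of the other named pathway genes lost a call in 24 of 700 cases.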
